A study of Mus musculus with 8 samples.

Results

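The genes described here encode 38 cytokine and growth factor receptor chains, chosen by gene symbol from the annotation of the array and read through the brightest probe set of each gene. Signals were obtained for 35 of the 38, out of 19938 genes measured. The signals of Il1r1, Il2rg and Il11ra1 were not analysed here. Cytokine receptors sit at the cell surface and most have no enzyme activity of their own. On binding a cytokine, chains of the haematopoietin and interferon families come together and activate bound JAK kinases, which phosphorylate STAT transcription factors. The IL-1, IL-18, IL-17 and TNF receptors work through adaptor proteins, and the CSF1 and PDGF receptors are tyrosine kinases. In bone marrow these receptors determine which survival, growth and inflammatory signals a progenitor can receive.

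RNA was hybridised from 2 sorted bone marrow populations of C57BL/6J mice. KLS cells, which carry c-Kit and Sca-1 and lack lineage markers, include haematopoietic stem cells and early multipotent progenitors. MEP cells are the later progenitors of platelets and red cells. Each population was taken from wild-type mice (WT) and from mice labelled ∆Hmga2 (TG in the array names), in a series titled for overexpression of HMGA2, a chromatin-binding protein. The sources used here do not give the promoter that drives the transgene, the number of founder lines or the age of the animals. Each of the 4 groups had 2 arrays from separate RNA preparations, 8 in all, and each preparation pooled 4 or 6 mice, so the spread between arrays is that between pools. All levels below are log2 probe set signals after quantile normalization. They compare arrays for 1 gene and not different genes with each other.

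Of 8 stem and multipotent progenitor markers, 7 were higher on every KLS array than on any MEP array, and of 10 erythroid markers, 7 were higher on every MEP array. Alas2 and Slc4a1, genes of late red cells, overlapped. So did the erythropoietin receptor gene Epor, at 6.92 to 7.14 on KLS and 7.06 to 7.42 on MEP arrays. Of 6 megakaryocyte markers, 0 were higher on every MEP array and 1, Itga2b, was higher on every KLS array, so this list did not bear out the MEP label. Their mean was 6.86 to 7.05 on KLS and 6.44 to 6.77 on MEP arrays. Pf4 read 6.96 to 8.24 on KLS and 5.37 to 7.14 on MEP arrays, while Vwf read 6.79 to 6.94 and 6.78 to 7.21. Cd34 read 9.14 to 10.15 on KLS arrays and 5.91 to 7.62 on MEP arrays, while the transferrin receptor gene Tfrc read 10.65 to 10.89 on KLS arrays and 11.23 to 11.44 on MEP arrays. The Sca-1 gene Ly6a was not analysed here. The Hmga2 probe set read 6.85 and 7.12 on WT KLS arrays against 7.35 and 7.11 on TG KLS arrays, which overlap, and 6.70 and 6.74 on WT MEP arrays against 6.95 and 6.99 on TG MEP arrays. The sources used here do not say which part of the transcript that probe set reads or whether the transgene holds it, so it does not settle the genotype labels. One array stood apart. On WT MEP array 1 the mean of 7 B cell markers was 8.54, against 6.46 to 6.59 on the other MEP arrays and 6.90 to 7.38 on KLS arrays. The mean of 8 stem and multipotent progenitor markers was 7.28 on that array and 6.65 to 6.72 on the other MEP arrays. Results that rest on this array are given with and without it.

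Promoter sequence is shown for the 4 receptor genes that passed the test between KLS and MEP cells, because these are the genes that the comparison turns on. They come from RefSeq on GRCm38.p6 and cover 300 bases around the annotated transcription start, most of them upstream of it. Capitals mark the letters GAGGAA, the core bound by the myeloid factor PU.1, and TTNNGNAA, a form of the C/EBP site, searched on both strands.
Csf3r, chr4:126024409-126024708, plus strand: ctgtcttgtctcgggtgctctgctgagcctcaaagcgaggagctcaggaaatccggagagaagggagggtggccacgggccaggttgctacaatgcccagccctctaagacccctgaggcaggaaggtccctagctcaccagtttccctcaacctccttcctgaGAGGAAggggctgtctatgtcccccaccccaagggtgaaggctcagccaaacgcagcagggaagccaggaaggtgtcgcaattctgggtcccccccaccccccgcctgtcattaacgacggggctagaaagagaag
Il18rap, chr1:40515112-40515411, plus strand: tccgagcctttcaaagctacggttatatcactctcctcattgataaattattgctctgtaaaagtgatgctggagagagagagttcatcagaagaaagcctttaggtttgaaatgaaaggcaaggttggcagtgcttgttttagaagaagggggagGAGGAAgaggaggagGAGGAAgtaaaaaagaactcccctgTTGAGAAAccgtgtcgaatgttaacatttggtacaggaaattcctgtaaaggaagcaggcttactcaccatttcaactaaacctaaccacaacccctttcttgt
Il6st, chr13:112463820-112464119, plus strand: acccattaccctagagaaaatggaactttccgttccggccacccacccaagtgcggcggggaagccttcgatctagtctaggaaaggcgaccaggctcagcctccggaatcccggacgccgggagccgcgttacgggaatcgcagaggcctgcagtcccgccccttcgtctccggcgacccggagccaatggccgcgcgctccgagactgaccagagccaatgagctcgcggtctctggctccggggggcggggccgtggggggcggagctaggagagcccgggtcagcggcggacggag
Ifnar2, chr16:91372533-91372832, plus strand: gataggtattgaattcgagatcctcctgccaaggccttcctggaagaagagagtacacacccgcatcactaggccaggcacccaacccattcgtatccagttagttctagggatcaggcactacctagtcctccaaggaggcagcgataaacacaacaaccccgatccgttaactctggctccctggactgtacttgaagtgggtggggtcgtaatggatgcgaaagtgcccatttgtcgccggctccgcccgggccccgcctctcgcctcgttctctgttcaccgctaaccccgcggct
The Il18rap window held GAGGAA at 2 places and TTNNGNAA at 1. The Csf3r window held GAGGAA at 1 place, and the Il6st and Ifnar2 windows held neither set of letters. Windows were counted for 29 of the 38 listed genes, 35 windows in all, with Il1r1, Il2rg and Il11ra1 among the genes. Of these windows 34.3% held GAGGAA and 28.6% held TTNNGNAA, against 28.3% and 40.7% of all 32851 windows. The letters TTCNNNGAA, the STAT core, were in 20% of the receptor windows (7 of 35, Ifnar2 among them) and in 8.3% of all windows. The RUNX letters TGTGGT were in 20% against 16.8%, and the GATA letters AGATAA in 5.71% against 11.2%. Letters in a window are a description and do not show binding.

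Taken over both genotypes, 4 of the 35 measured receptor genes rose in KLS cells past an adjusted p of 0.05 and none fell: Il18rap, Csf3r, Il6st and Ifnar2. Of all 19938 genes, 1.2% were called higher in KLS cells and 0.396% higher in MEP cells, with limma and Benjamini-Hochberg adjustment over all genes. The difference was above 0 for 32 of the 35 receptor genes (91.4%) against 53.5% of all genes, and its median was 0.29 on the log2 scale against 0.01. An unadjusted p under 0.05 was reached by 18 receptor genes and by 2844 genes in all. The 4 KLS arrays lay wholly above the 4 MEP arrays for 10 receptor genes (28.6%) against 4.41% of all genes, and wholly below for 0 against 4.63%. In sorted bulk RNA, fewer cells carrying a transcript and less transcript per cell cannot be told apart. Marker means of other cell types also differed between the populations. The mean of 8 mast cell, basophil and eosinophil markers was 6.74 to 7.21 on KLS arrays and 5.89 to 6.64 on MEP arrays, which do not overlap. Of the 8, only 3 were higher on every KLS array (Mcpt8, Cpa3 and Prss34), and the others overlapped. The mean of 8 monocyte and macrophage markers was 6.61 to 7.12 on KLS arrays and 6.19 to 6.72 on MEP arrays. The mean of 11 neutrophil markers was 9.60 to 10.45 on KLS arrays and 8.36 to 9.91 on MEP arrays, so that these lists overlapped. The part of such cells in the receptor differences was not tested.

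**Figure D1:**
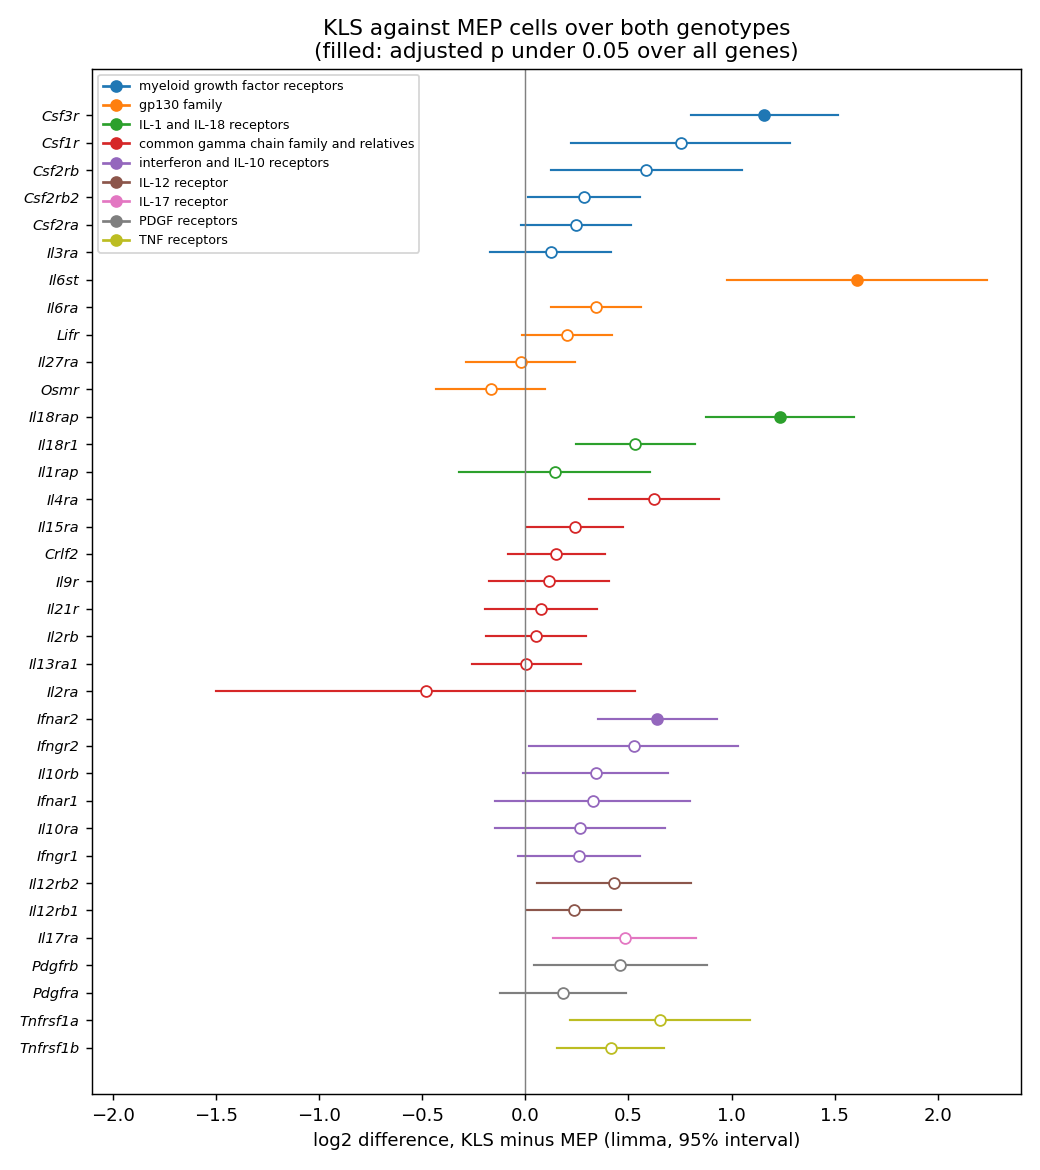
KLS minus MEP difference over both genotypes for each of the 35 receptor genes, on the log2 scale, with the 95% interval of the limma fit (4 KLS and 4 MEP arrays). Colours give the receptor family and filled points an adjusted p under 0.05 over all genes: Il18rap, Csf3r, Il6st and Ifnar2. The points lie to the right of 0 for 32 genes.

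Among the myeloid growth factor receptors, Csf3r, the receptor for G-CSF that drives granulocyte production, rose in KLS cells. Its signal was 7.58 and 7.41 on WT KLS arrays, 7.39 and 7.26 on TG KLS arrays, 6.82 and 6.10 on WT MEP arrays, and 6.13 and 5.97 on TG MEP arrays. The KLS arrays were all above the MEP arrays, with WT MEP array 1 the nearest. The difference was 1.16 ± 0.16 (SE; 95% interval 0.80 to 1.51; 2.23-fold; adjusted p = 0.0160, limma). The call was lost when TG KLS array 1 (adjusted p = 0.0874), TG MEP array 1 (0.0686) or TG MEP array 2 (0.0837) was left out.

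The other 5 genes of this family had positive differences that did not pass. Csf1r, the tyrosine kinase receptor for CSF1 on macrophages and their precursors, differed by 0.75 ± 0.23 (SE; adjusted p = 0.160, limma). Its arrays overlapped, at 6.41 to 7.40 in KLS cells and 5.68 to 6.42 in MEP cells. The IL-3 and GM-CSF alpha chains showed small differences, 0.12 for Il3ra and 0.25 for Csf2ra. Csf2rb encodes the beta chain shared by the IL-3, IL-5 and GM-CSF receptors, and Csf2rb2 its near-identical mouse copy, which serves IL-3. Csf2rb read 7.27 and 6.32 on WT KLS, 6.83 and 6.34 on TG KLS, 6.43 and 6.30 on WT MEP, and 5.87 and 5.79 on TG MEP arrays. Csf2rb2 read 7.17 and 6.94 on WT KLS, 7.15 and 6.75 on TG KLS, 6.74 and 6.69 on WT MEP, and 6.75 and 6.70 on TG MEP arrays. The Csf2rb arrays overlapped between cell types. Those of Csf2rb2 only just did not, with TG KLS array 2 at 6.751 and TG MEP array 1 at 6.748. Probes for either copy may read the other, so the differences of 0.59 ± 0.20 for Csf2rb and 0.29 ± 0.12 for Csf2rb2 (SE; adjusted p = 0.210 and 0.317, limma) are uncertain as to gene.

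**Figure D2:**
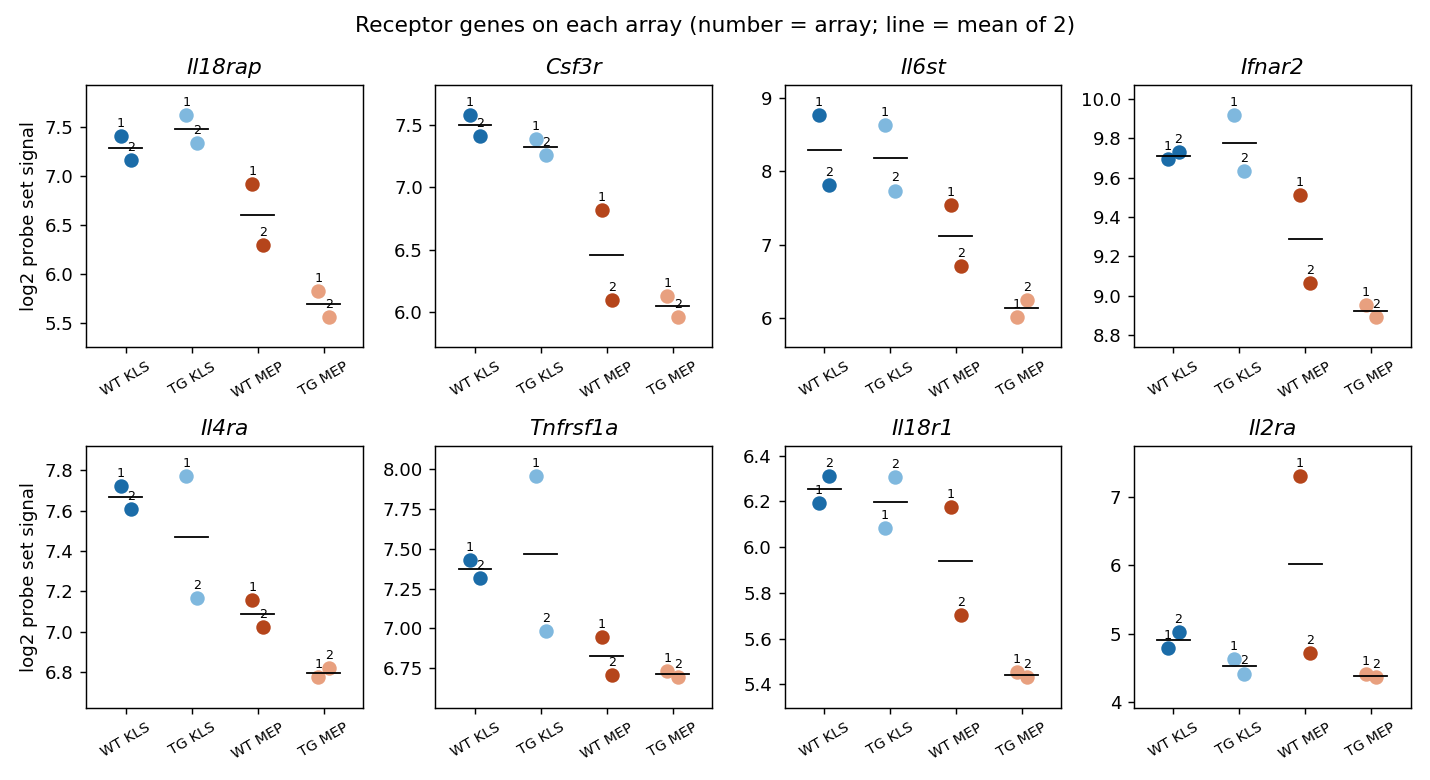
Log2 probe set signal of 8 receptor genes on each of the 8 arrays, by group, with the array number beside each point and a line at the mean of 2; each panel has its own scale, which does not start at 0. In the panels of Il18rap, Csf3r, Il6st and Ifnar2 all KLS arrays lie above all MEP arrays, and in the Il2ra panel WT MEP array 1 stands alone at 7.30.

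In the gp130 family the signal-transducing chain itself, Il6st, showed the widest difference of the 35 genes. Il6st encodes gp130, used by the receptors for IL-6, IL-11, LIF and oncostatin M. It read 8.77 and 7.81 on WT KLS, 8.63 and 7.74 on TG KLS, 7.54 and 6.71 on WT MEP, and 6.02 and 6.25 on TG MEP arrays. All KLS arrays were above all MEP arrays, but the arrays within a KLS group lay 0.96 (WT) and 0.89 (TG) apart. The difference was 1.61 ± 0.28 (SE; 95% interval 0.98 to 2.24; 3.05-fold; adjusted p = 0.0362, limma). The call was lost with median centring (adjusted p = 0.0714) and with robust variances (0.0545). It was also lost without WT KLS array 1 (0.0855), TG KLS array 1 (0.132), WT MEP array 2 (0.104), TG MEP array 1 (0.143) or TG MEP array 2 (0.129).

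The ligand-specific partners of gp130 differed less. Il6ra, the IL-6 binding chain, lay at 7.01 to 7.12 on KLS and 6.67 to 6.83 on MEP arrays, which do not overlap, with a difference of 0.34 ± 0.10 (SE; adjusted p = 0.127, limma). Lifr, the LIF receptor, Osmr, the oncostatin M receptor, and Il27ra, a chain of the IL-27 receptor, differed by 0.20, -0.17 and -0.02. Lifr and Osmr were among 6 receptor genes in the dimmest 30% of all genes, where small differences are hard to measure.

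Of the 3 IL-1 and IL-18 receptor chains, 1 rose in KLS cells. Il18rap, the accessory chain needed for signalling, read 7.41 and 7.17 on WT KLS, 7.63 and 7.34 on TG KLS, 6.92 and 6.29 on WT MEP, and 5.82 and 5.56 on TG MEP arrays. The KLS arrays were all above the MEP arrays, and the TG MEP arrays were the lowest. The difference was 1.24 ± 0.16 (SE; 95% interval 0.88 to 1.59; 2.35-fold; adjusted p = 0.0136, limma). It was not called without TG KLS array 1 (adjusted p = 0.0694), TG MEP array 1 (0.0629) or TG MEP array 2 (0.0736). Il18r1, the ligand-binding chain, is the immediate neighbour of Il18rap on chromosome 1, with 0 protein-coding genes between them. It read 6.19 and 6.31 on WT KLS, 6.08 and 6.31 on TG KLS, 6.18 and 5.70 on WT MEP, and 5.45 and 5.43 on TG MEP arrays. WT MEP array 1 overlapped the KLS arrays, and the difference of 0.53 ± 0.13 (SE) had an adjusted p of 0.0805 (limma). Without that array the difference was 0.65 and passed (adjusted p = 0.0238), and without WT MEP array 2 it was 0.41. Il1rap, the accessory chain of the IL-1 and IL-33 receptors, ranged from 6.34 to 7.20 on KLS and 6.48 to 6.91 on MEP arrays, which overlap.

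Of 6 interferon and IL-10 receptor chains, 1 rose in KLS cells. Ifnar2 encodes the high-affinity chain of the type I interferon receptor. It read 9.69 and 9.73 on WT KLS, 9.92 and 9.64 on TG KLS, 9.51 and 9.06 on WT MEP, and 8.95 and 8.89 on TG MEP arrays. The KLS arrays were all above the MEP arrays. The difference of 0.64 ± 0.13 (SE; 95% interval 0.35 to 0.93; 1.56-fold) passed narrowly (adjusted p = 0.0487, limma). It was not called with median centring (adjusted p = 0.165), on the deposited values without further normalization (0.0999), or with any 1 array other than WT MEP array 1 left out (0.0667 to 0.174), and without WT MEP array 1 the adjusted p was 0.0159.

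Ifnar2, Il10rb, Ifnar1 and Ifngr2 lie next to each other on chromosome 16, with 0 protein-coding genes between neighbours. The other 3 genes of this cluster differed by 0.34 (Il10rb, a chain shared by the IL-10 family), 0.33 (Ifnar1, the second type I chain) and 0.52 (Ifngr2, the signalling chain of the interferon gamma receptor), and none passed. Ifngr2 passed without WT MEP array 1, at 0.79 (adjusted p = 0.0431, limma), and was at 0.26 without WT MEP array 2. Ifngr1, the ligand-binding chain for interferon gamma, lay between 9.53 and 10.09 on all 8 arrays, with a difference of 0.26. Il10ra, the specific IL-10 chain, differed by 0.27.

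None of the 8 genes of the common gamma chain family and its relatives passed, and the family median of 0.10 was the smallest of the families with more than 1 gene. Il4ra, the shared chain of the IL-4 and IL-13 receptors, came nearest. It read 7.72 and 7.61 on WT KLS, 7.77 and 7.17 on TG KLS, 7.16 and 7.02 on WT MEP, and 6.77 and 6.82 on TG MEP arrays. TG KLS array 2 lay just above WT MEP array 1, so the cell types did not overlap, and the difference was 0.62 ± 0.14 (SE; adjusted p = 0.0650, limma). It was at 0.47 without TG KLS array 1, and it passed without TG KLS array 2 (0.77, adjusted p = 0.0318) and with the replicate number as a block (0.0444). Il15ra, Crlf2 (the TSLP receptor), Il9r, Il21r, Il2rb and Il13ra1 had differences between 0.01 and 0.24 in size, all above 0. Il2ra is described with the genotype comparison.

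Both TNF receptors, the widely expressed Tnfrsf1a and the more restricted Tnfrsf1b, lay higher on every KLS array than on any MEP array, and neither passed. Tnfrsf1a read 7.43 and 7.32 on WT KLS, 7.96 and 6.98 on TG KLS, 6.95 and 6.71 on WT MEP, and 6.73 and 6.69 on TG MEP arrays. TG KLS array 2 was barely above WT MEP array 1. The difference was 0.65 ± 0.19 (SE; adjusted p = 0.141, limma), which passed without TG KLS array 2 (0.90, adjusted p = 0.0247) and was 0.41 without TG KLS array 1. Tnfrsf1b differed by 0.41 ± 0.11 (SE; adjusted p = 0.122, limma). The remaining genes did not pass. Il17ra, the IL-17A receptor, differed by 0.48, the IL-12 receptor chains Il12rb2 and Il12rb1 by 0.43 and 0.24, and the PDGF receptor Pdgfrb, a mesenchymal kinase, by 0.46. The mean of 8 stromal and endothelial markers was 6.15 to 6.26 on KLS and 5.70 to 5.87 on MEP arrays. Only 1 of the 8, Emcn, listed as an endothelial gene, was higher on every KLS array, at 6.09 to 6.65 on KLS and 4.73 to 5.19 on MEP arrays. The others overlapped. Pecam1 read 7.85 to 8.63 on KLS and 6.38 to 8.28 on MEP arrays. The mesenchymal gene Col1a1 read 6.95 to 7.34 and 6.76 to 7.32, and Col3a1 6.21 to 6.43 and 6.04 to 6.32. The part of stromal and endothelial cells in the Pdgfrb value was not tested.

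**Figure D3:**
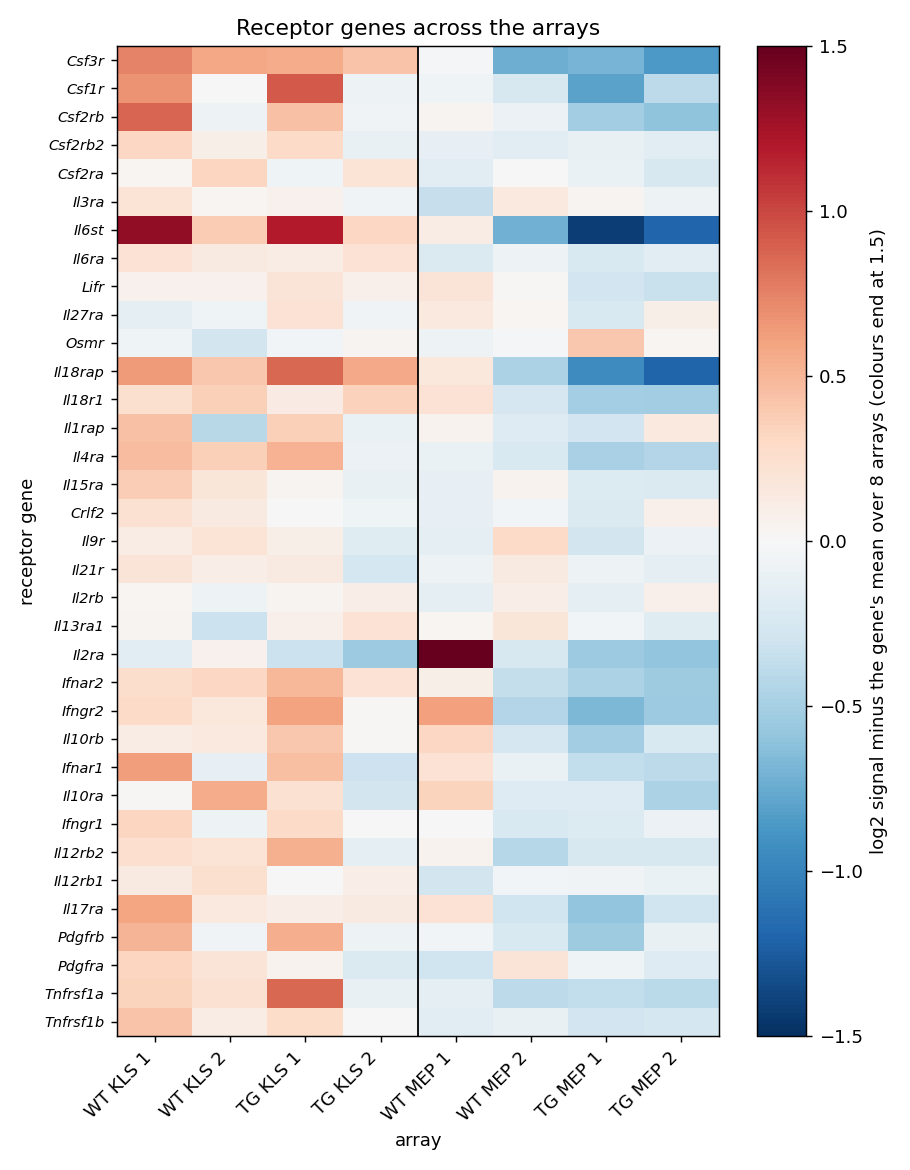
Log2 signal of each of the 35 receptor genes on each array minus the gene's mean over 8 arrays, with colours ending at 1.5. KLS arrays are on the left of the line and MEP arrays on the right. The left part is mostly red and the right part mostly blue, with WT MEP array 1 closer to 0 than the other MEP arrays for Csf3r, Il6st and Il18rap, and Il2ra dark red on that array.

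Within each genotype the cell types were compared on 2 arrays each. In TG mice Il18rap rose in KLS cells by 1.79 ± 0.22 (SE; 3.45-fold; adjusted p = 0.0318, limma), the 1 receptor gene called, against 0.135% of all genes (27). Leaving out any of the 4 TG arrays ended that call, with adjusted p values from 0.0622 to 0.361, and so did median centring (0.0714). In WT mice 0 of 35 receptor genes passed, where 0.00502% of all genes (1 gene) did, and 8 of the 35 reached an unadjusted p under 0.05 against 1774 genes in all. Median differences were 0.31 in WT and 0.36 in TG mice, against 0.03 and -0.0019 for all genes. The difference for Csf3r was 1.04 in WT and 1.28 in TG mice, for Il6st 1.17 and 2.05, for Ifnar2 0.42 and 0.86, and for Il18rap 0.68 and 1.79. Without WT MEP array 1 the WT difference was 1.40 for Csf3r, 0.65 for Ifnar2 and 0.995 for Il18rap. Without WT MEP array 2 it was 0.68, 0.20 and 0.37. For Il6st, with 1 array left out, the WT difference ran from 0.69 (without WT KLS array 1) to 1.64 (without WT KLS array 2). Its TG difference ran from 1.61 (without TG KLS array 1) to 2.49 (without TG KLS array 2). Whether these differ by genotype is the interaction, given after the genotype comparisons.

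The genotype comparison in KLS cells asks whether receptor genes changed in the ∆Hmga2 stem and progenitor fraction. No receptor gene passed, no gene in the whole table did (0%), and 0 of 35 reached an unadjusted p under 0.05 against 500 genes in all (limma). Differences ran from -0.38 (Il2ra) to 0.29 (Il13ra1), with 14 above 0, and a median of -0.10 against -0.02 for all genes. The median turned to 0.03 without WT KLS array 1 and to 0.10 without TG KLS array 2, with 20 and 21 genes above 0. The TG arrays lay wholly below the WT arrays for 8 receptor genes (22.9%) against 17.2% of all genes, and wholly above for 5 (14.3%) against 11.7%, shares near those of all genes.

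The 5 receptor genes with the smallest p in KLS cells were Il15ra, Pdgfra, Il13ra1, Crlf2 and Il21r. Il15ra, which presents IL-15 to neighbouring cells, read 7.47 and 7.28 on WT KLS, 7.14 and 6.99 on TG KLS, 6.98 and 7.15 on WT MEP, and 6.89 and 6.88 on TG MEP arrays. Its TG KLS arrays were both below the WT KLS arrays, with a difference of -0.31 ± 0.15 (SE; 95% interval -0.64 to 0.02). Pdgfra, the alpha PDGF receptor, read 5.88 and 5.75 on WT KLS, 5.61 and 5.33 on TG KLS, 5.25 and 5.75 on WT MEP, and 5.49 and 5.35 on TG MEP arrays, and differed by -0.34 ± 0.19 (SE). These are dim signals, and the groups did not overlap in KLS cells. Crlf2 read 7.42 and 7.33 on WT KLS, 7.18 and 7.13 on TG KLS, 7.07 and 7.15 on WT MEP, and 6.98 and 7.26 on TG MEP arrays, and differed by -0.22 ± 0.15 (SE). Il21r, the IL-21 receptor, read 6.78 and 6.68 on WT KLS, 6.71 and 6.31 on TG KLS, 6.50 and 6.72 on WT MEP, and 6.50 and 6.44 on TG MEP arrays, and differed by -0.22 ± 0.17 (SE), or -0.02 without TG KLS array 2. The Crlf2 arrays did not overlap between genotypes in KLS cells and the Il21r arrays did. Il13ra1, the IL-13 binding chain, is described with the interaction.

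**Figure D4:**
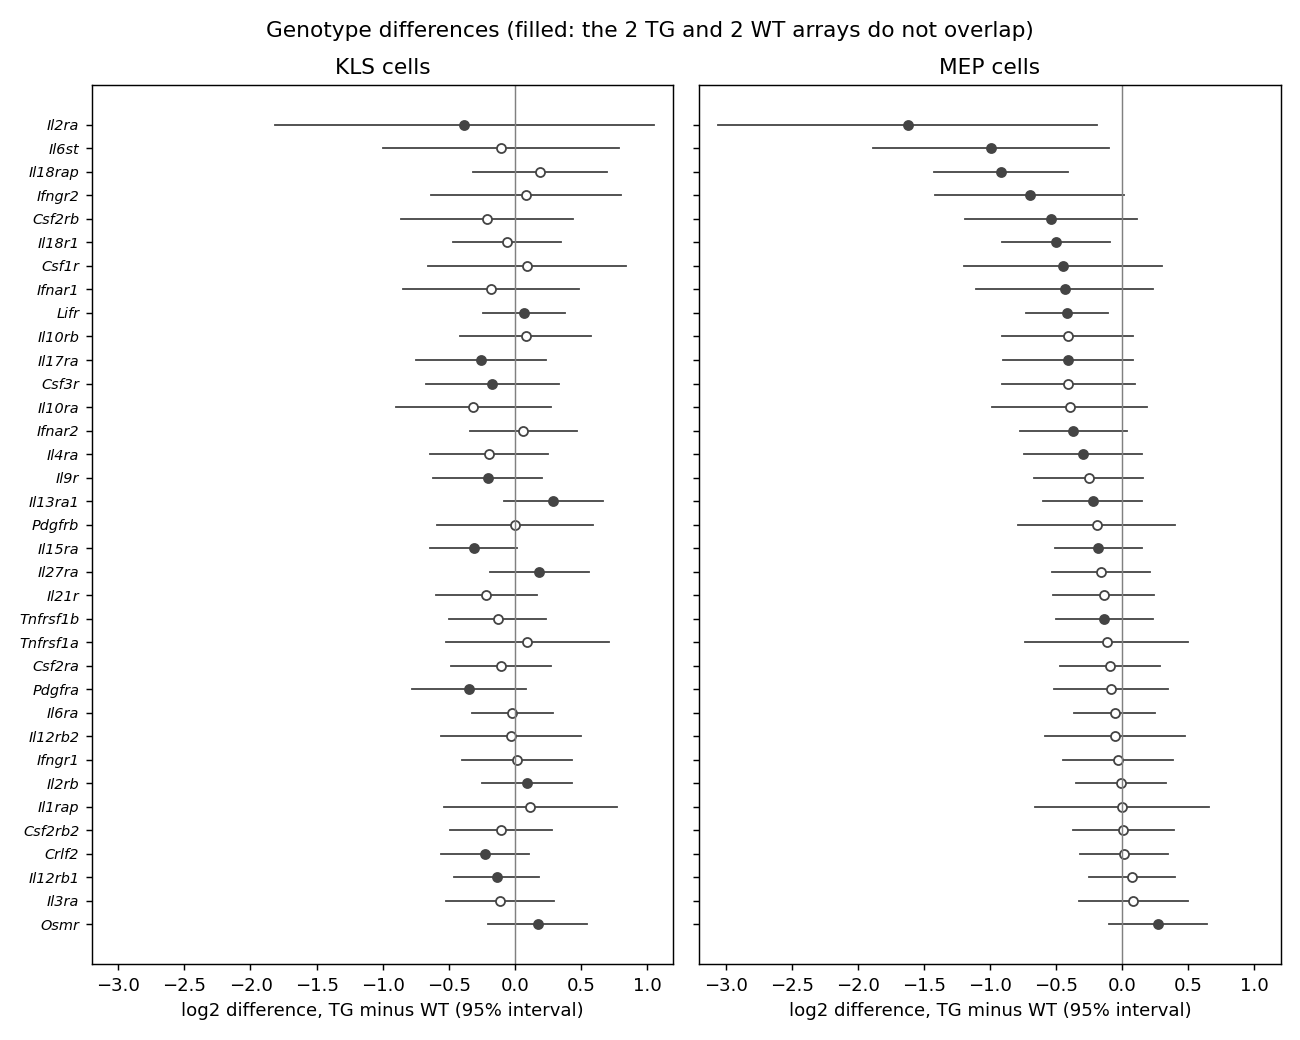
TG minus WT difference for each of the 35 receptor genes in KLS cells (left) and MEP cells (right), on the log2 scale with the 95% interval of the limma fit, 2 arrays against 2. Filled points mark genes whose TG and WT arrays do not overlap, not genes that passed the test, since 0 did in either population. In MEP cells 29 of 35 points lie to the left of 0.

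In MEP cells, too, 0 of 35 receptor genes and 0% of all genes passed between genotypes, with 5 receptor genes and 739 genes in all at an unadjusted p under 0.05 (limma). The receptor differences were mostly below 0, 29 of 35, with a median of -0.19 against -0.01 for all genes. Without WT MEP array 1 the median was -0.16, against -0.04 for all genes. The TG arrays lay wholly below the WT arrays for 15 receptor genes (42.9%) against 17.2% of all genes, and wholly above for 1, Osmr (0.27), against 13%. On the TG MEP arrays the mean of 8 monocyte and macrophage markers was 6.24 and 6.19, against 6.72 and 6.39 on the WT MEP arrays. The mean of 11 neutrophil markers was 8.36 and 8.50 against 9.91 and 9.18, that of 10 T and NK cell markers 5.43 and 5.61 against 6.07 and 5.73, and that of 8 mast cell, basophil and eosinophil markers 5.89 and 5.92 against 6.64 and 6.06. The mean of 10 erythroid markers was lower as well, at 9.455 and 9.52 against 9.735 and 9.779. So was that of 6 megakaryocyte markers, at 6.441 and 6.558 against 6.765 and 6.564. The B cell mean was 6.48 and 6.46 against 8.54 and 6.59. The stromal and endothelial mean was 5.72 and 5.70 against 5.87 and 5.78. Only the stem and multipotent progenitor mean overlapped, at 6.65 and 6.72 against 7.28 and 6.66. The part of these cell types in the receptor values was not tested.

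The smallest p values in MEP cells belonged to Il18rap, Lifr, Il18r1, Il2ra and Il6st, whose array values other than those of Lifr and Il2ra are given with the cell type comparison. Il18rap differed by -0.91 ± 0.22 (SE; 95% interval -1.42 to -0.41; unadjusted p = 0.00284, adjusted p = 1, limma), and Il18r1 by -0.50 ± 0.18 (SE). Il6st differed by -0.99 ± 0.39 (SE). Without WT MEP array 1 these 3 differences were -0.60, -0.26 and -0.57. Lifr read 5.13 and 5.14 on WT KLS, 5.26 and 5.15 on TG KLS, 5.26 and 5.09 on WT MEP, and 4.78 and 4.74 on TG MEP arrays. The TG MEP arrays were its lowest, at -0.42 ± 0.14 (SE) from WT, or -0.33 without WT MEP array 1.

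Il2ra, the alpha chain of the IL-2 receptor (CD25), is known from activated and regulatory T cells and from B cell precursors. It read 4.80 and 5.03 on WT KLS, 4.64 and 4.42 on TG KLS, 7.30 and 4.72 on WT MEP, and 4.42 and 4.37 on TG MEP arrays. Of the 8 arrays 1 carried a clear signal, WT MEP array 1, and the other 7 lay between 4.37 and 5.03. On that array the B cell genes were high as well. Cd79b read 9.84 there and 7.15 on WT MEP array 2, Pax5 8.64 and 6.72, and Blnk 9.35 and 6.75. The TG minus WT difference of Il2ra in MEP cells was -1.62 ± 0.63 (SE; 95% interval -3.06 to -0.19; adjusted p = 1, limma). Without WT MEP array 1 it was -0.33, and without WT MEP array 2 it was -2.91 with an adjusted p of 0.00240. That second fit leaves WT MEP array 1 alone in its group, so it takes the spread from the other groups and assumes that this array varies as they do. In the cell type comparison Il2ra was at -0.48 ± 0.45 (SE) on all 8 arrays. It turned to 0.16 without WT MEP array 1, and was at -1.13 without WT MEP array 2 (adjusted p = 0.0150, with the same assumption).

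**Figure D5:**
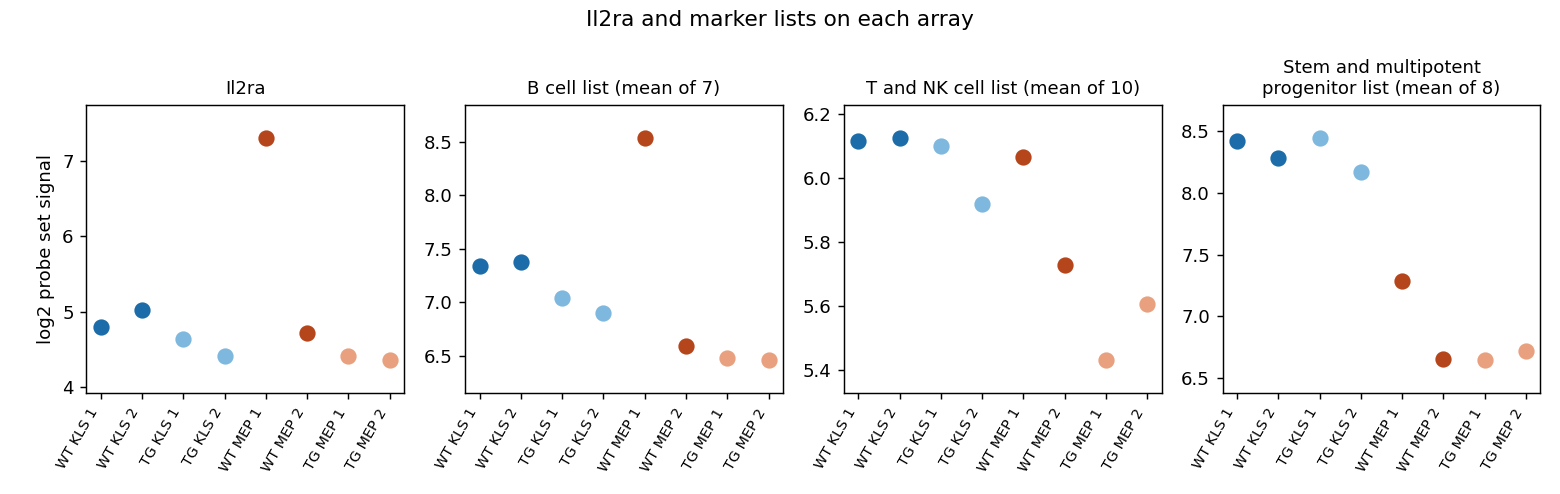
Log2 probe set signal of Il2ra on each array, beside the mean of 7 B cell, 10 T and NK cell, and 8 stem and multipotent progenitor markers; each panel has its own scale, which does not start at 0. WT MEP array 1 has the highest Il2ra (7.30) and B cell (8.54) values of the 8 arrays, and stem and multipotent progenitor markers are higher on it (7.28) than on the other MEP arrays.

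Averaged over both cell types, 30 of 35 receptor differences between genotypes were below 0 (median -0.16 against -0.01 for all genes), 0 passed, and 0% of all genes did. An unadjusted p under 0.05 was reached by 2 receptor genes and 649 genes in all. The 5 with the smallest p were Il15ra at -0.25 ± 0.10, Il18rap at -0.36 ± 0.16, Il2ra at -1.0 ± 0.45, Il18r1 at -0.28 ± 0.13 and Il17ra at -0.33 ± 0.15 (SE, adjusted p = 0.999 for each, limma). Without WT MEP array 1, Il18rap was at -0.20, Il18r1 at -0.16 and Il17ra at -0.20. Il17ra read 9.08 and 8.64 on WT KLS, 8.59 and 8.62 on TG KLS, 8.71 and 8.20 on WT MEP, and 7.90 and 8.20 on TG MEP arrays. Its TG arrays lay below the WT arrays within each cell type, but WT array 2 in each nearly coincided with a TG array. Il2ra was at -0.36 without WT MEP array 1 and at -1.65 without WT MEP array 2 (adjusted p = 0.00632), where WT MEP array 1 again stood alone.

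The interaction tests whether the genotype difference was unlike in KLS and MEP cells. No receptor gene and no gene at all passed (0%), with 2 receptor genes and 453 genes in all at an unadjusted p under 0.05 (limma). Il18rap had the smallest p of the receptor genes: its genotype difference was 1.11 ± 0.32 (SE; 95% interval 0.39 to 1.82; adjusted p = 1) more positive in KLS than in MEP cells. Without WT MEP array 1 the value was 0.79. Lifr followed at 0.49 ± 0.19 and Il13ra1 at 0.51 ± 0.23 (SE). Il13ra1 read 5.30 and 4.94 on WT KLS, 5.34 and 5.48 on TG KLS, 5.30 and 5.45 on WT MEP, and 5.22 and 5.08 on TG MEP arrays, so that TG arrays were higher in KLS and lower in MEP cells, all on a dim probe set. For Il2ra the interaction was 1.24 ± 0.89 (SE) on all 8 arrays, -0.05 without WT MEP array 1 and 2.53 without WT MEP array 2 (adjusted p = 0.0255), so its value rested on WT MEP array 1.

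The 2 arrays of a KLS group did not spread evenly over the receptor genes. With a gap of 0.4 chosen after the values were seen, array 1 was above array 2 in both WT and TG KLS cells for 6 of 35 receptor genes (17.1%): Csf1r, Csf2rb, Il6st, Il1rap, Ifnar1 and Pdgfrb. That held for 3.78% of all genes, and the opposite for 0 receptor genes and 1.11% of all genes. For Csf1r the gaps were 0.68 (WT) and 0.99 (TG), and for Ifnar1 0.75 and 0.76. Ifnar1 read 8.14 and 7.39 on WT KLS and 7.97 and 7.21 on TG KLS arrays. Of 8 monocyte and macrophage markers, 5 were higher on array 1 in both genotypes by a gap of any size, not 0.4. Cd14, Cx3cr1 and Clec4a1 were not. Counted the same way, 5 of 8 stem and multipotent progenitor and 4 of 8 mast cell, basophil and eosinophil markers were higher on array 1. The counts were 3 of 7 for B cell, 3 of 10 for T and NK cell, 2 of 10 for erythroid and 2 of 6 for megakaryocyte markers. They were 2 of 8 for stromal and endothelial and 0 of 11 for neutrophil markers. The macrophage gene Mpeg1 read 8.74 and 8.07 on WT KLS and 8.76 and 7.98 on TG KLS arrays, and Ccr2, a monocyte chemokine receptor, 7.99 and 7.56, then 8.48 and 7.39. The monocyte and macrophage marker mean was 6.91 and 6.73 on WT KLS arrays and 7.12 and 6.61 on TG KLS arrays. The mean of 11 neutrophil markers ran the other way in WT, at 9.60 and 10.45. The part of such cells in the gaps was not tested.

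The genes around these receptors in the pathway were read from 4 lists, of which 12 of 15 other haematopoietic receptors, 7 of 7 decoys and antagonists, 32 of 32 ligands and 27 of 32 signalling partners were measured. Between KLS and MEP cells over both genotypes 1, 0, 2 and 1 of them were called, all higher in KLS cells. These are 8.33%, 0%, 6.25% and 3.7% of short lists, against 1.2% of all genes called higher in KLS cells. Flt3, a receptor kinase of lymphoid-primed multipotent progenitors, rose by 2.55 ± 0.26 (SE; adjusted p = 0.00805, limma), and in TG mice alone by 3.02 ± 0.36 (adjusted p = 0.0318). The ligand genes Il15 and Il18 rose by 1.85 ± 0.28 (adjusted p = 0.0268) and 1.32 ± 0.22 (adjusted p = 0.0356). Il18 is the ligand of the receptor formed by Il18r1 and Il18rap, and Il15 that of Il15ra. Stat4, which carries IL-12 and type I interferon signals, rose by 1.77 ± 0.35 (adjusted p = 0.0487). Each of these calls was lost with at least 1 array left out: Flt3 over both genotypes without TG MEP array 1 (adjusted p = 0.0629), and Il15, Il18 and Stat4 without either TG MEP array among others (0.0892 to 0.175). Stat4 was also not called on the values as deposited (0.0557), with median centring (0.0785) or with robust variances (0.0895). Flt3 in TG mice was not called with median centring (0.0660), with robust variances (0.0696) or without any 1 of the TG arrays (0.0680 to 0.361). In the genotype comparisons 0 genes of the 4 lists passed.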

How the data were processed

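Total RNA from sorted KLS and MEP cells was hybridised to 8 Affymetrix arrays. The authors deposited log2 signals per probe set, made with Affymetrix Expression Console per the submitters' processing notes. The sources used here state neither its version nor how background and arrays were adjusted. The deposited array medians spanned 0.106, so the arrays were quantile normalized over all 35556 probe sets. The 21789 probe sets with 1 gene symbol were kept (1621 had several and 12146 none). Of these, 21698 matched RefSeq by Entrez identifier. The brightest probe set stood for each of 19938 genes. Group means were fitted with limma 3.58.1 in R 4.3.3 on all 8 arrays (4 residual and 4.82 prior degrees of freedom). A gene was called at a two-sided adjusted p under 0.05 (Benjamini-Hochberg over all genes). The procedure was tested on simulated data. The receptor genes and other lists were chosen with earlier results of these data known. Array values are given for receptor genes that were called, those whose KLS and MEP arrays did not overlap by a difference of at least 0.5, the 5 (interaction: 3) with the smallest p in each genotype comparison, and Csf2rb with Csf2rb2. Values of other genes were chosen after they were seen, except called genes of the pathway lists. Promoters came from RefSeq on GRCm38.p6. Protein sequences were not used here. Alternatives were other normalizations, filters, variance models, array weights, blocks and each array left out. Depth does not apply to arrays; their number limits the precision.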

Additional observations from a re-analysis of the deposited data

Results flagged for a closer look

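For 2 receptor genes the arrays of the 2 cell types moved in opposite directions with genotype, with both TG arrays on one side of both WT arrays in KLS cells and on the other side in MEP cells. These are Il13ra1, with an interaction of 0.514 on the log2 scale, and Lifr, with 0.490. Neither passed the interaction test (adjusted p = 1, limma), so a difference between the cell types is not shown. Of all genes, 3.48% (693 of 19938) had such a pattern. Both probe sets are dim. With 2 arrays a group, no test for an outlying array within a group was made.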

How the results depend on the processing

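No difference called in the main fit changed sign under any alternative. With 1 array left out, differences not called in the main fit changed sign for 7 of 35 receptor genes between KLS and MEP cells over both genotypes (Il3ra, Il1rap, Il2ra, Il2rb, Il13ra1, Il21r and Il27ra), 11 in WT and 7 in TG mice. Between genotypes they did so for 18 genes in KLS cells, 12 in MEP cells, 12 averaged, and 21 in the interaction. Over both genotypes 4 receptor genes were called between KLS and MEP cells, 2 with median centring, and 0 to 6 with 1 array left out (0 without TG KLS array 1, TG MEP array 1 or TG MEP array 2, 2 without WT KLS array 1, 6 without WT MEP array 1). Of all genes 319 were called there, 123 with median centring, 562 with the replicate block, and between 1 (without TG MEP array 1) and 738 (without WT MEP array 1) with 1 array left out. In WT mice the count of 0 did not hold when either WT MEP array was left out, through different genes in opposite directions. These were Csf3r without WT MEP array 1 (1.40, higher in KLS cells) and Il2ra without WT MEP array 2 (-2.39, lower in KLS cells). Each of these fits kept 1 WT MEP array. In TG mice the count of 1 became 0 with median centring, 2 with array weights, 3 with only the TG arrays in the fit, and 0 to 4 with 1 array left out (0 without any TG array, 4 without either WT MEP array). Genotype counts of 0 in MEP cells, averaged and in the interaction ranged from 0 to 1 with 1 array left out, the 1 being Il2ra without WT MEP array 2. In KLS cells the count stayed at 0 in all alternatives. Same-numbered arrays of WT KLS, TG KLS and WT MEP correlated at 0.18 to 0.385 in their deviations from the group means, and those of TG MEP with each of the 3 at -0.284 to -0.173, so the numbers were not taken to pair the samples over all groups. With the replicate number as a block, 5 receptor genes were called over both genotypes, 3 in TG mice and 0 in the genotype comparisons. With the TG MEP numbers crossed, a pairing added after the data were seen, the counts were 10 over both genotypes, 1 in WT and 5 in TG mice. The causes were not tested. With 2 pools a group, a missed threshold does not show equal levels.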
